A study of Mus musculus with 21 samples.

Results

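Ltf, Camp, Ngp, Lcn2, Mmp8, Mmp9, Ly6g, Retnlg, S100a8 and S100a9 are genes that neutrophils switch on in the later steps of their maturation. They were followed as 10 of the 45706 genes counted in each of 21 RNA-seq libraries. Each was found by its Ensembl mouse gene identifier, and all 10 passed the filter on low counts, which kept 19555 genes. The libraries came from a mouse model of juvenile myelomonocytic leukemia (JMML), a myeloproliferative disease of early childhood. Leukemic mice carried MxCre;Ptpn11D61Y/+ and were terminally ill, a state called stage 3 (S3). The D61Y allele of Ptpn11 encodes an overactive SHP2 phosphatase, is silent until Cre removes a stop cassette, and is released by a Cre recombinase driven by the interferon-inducible Mx1 promoter. Controls were MxCre mice, which have the recombinase and no mutant allele, and Ptpn11D61Y/+ mice, which have the allele and no recombinase. Per the study's methods every mouse, control or leukemic, received poly I:C, which induces interferon. The study describes expression of the mutant in the hematopoietic system. Mx1 responds in many cell types, and release of the allele outside blood cells was not measured here. Per the study's description of its disease stages, S3 mice were taken several months after the injections. The labels give neither the ages of the animals nor the time since injection of each.

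Samples of 3 kinds were sequenced, namely LSK cells, BM CD11b+ cells and spleen CD11b+ cells. LSK cells are bone marrow (BM) cells without lineage markers that carry Sca1 and cKit, and they contain the hematopoietic stem and progenitor cells. CD11b+ cells are myeloid cells caught on magnetic columns by the integrin CD11b, so the fraction holds neutrophils and monocytes together. MxCre and Ptpn11D61Y/+ had 2 libraries per fraction, and S3 had 3, named in the labels by mouse number: 540, 815 and 768 for LSK cells, and 540, 815 and 640 for both CD11b+ fractions. Total counts ran from 34992610 to 104509425 per library, with a median of 69421661. Nothing in the labels says that control libraries with the same number came from the same mouse, and p-values measure the spread between these libraries.

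A neutrophil fills its granules in a fixed order as it matures. Primary (azurophil) granules, with myeloperoxidase and elastase, are made first in promyelocytes. Secondary (specific) granules, with lactoferrin, cathelicidin and collagenase, follow in myelocytes and metamyelocytes, and tertiary granules, with gelatinase, follow in band cells. The granulocyte transcription factor C/EBP-epsilon is needed for the secondary granule programme, and calprotectin, the S100A8 and S100A9 dimer, comes to make up a large part of the cytosolic protein. Since bulk libraries pool all cells of a fraction, fewer neutrophils and less RNA per neutrophil cannot be told apart in any of the values here.

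The 10 genes lie on chromosomes 2, 3, 9, 15 and 16 of GRCm38, the build to which the reads were mapped, and no annotated gene overlaps any of them. Ltf (chr9:111019271-111042767), Ngp (chr9:110419747-110423012) and Camp (chr9:109847379-109849617) share a stretch of chromosome 9, where 570.129 kb separate Camp from Ngp and 596.258 kb separate Ngp from Ltf. S100a8 (chr3:90668978-90670035) and S100a9 (chr3:90692632-90695721) are neighbours, 22.596 kb apart. Mmp8 (chr9:7558456-7568485), Lcn2 (chr2:32384633-32388252), Mmp9 (chr2:164940780-164955850), Ly6g (chr15:75155240-75159126) and Retnlg (chr16:48872621-48874496) stand elsewhere. Camp and Ngp, Ly6g and the Ly6c genes, and Retnlg and the other resistin-like genes are related in sequence, and how the counting treated reads that fit several genes is not given in the sources used here.

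Because the levels of the 10 genes went together across the libraries, their promoter windows from RefSeq (GRCm38.p6) were searched for the letters bound by granulocyte factors. A window was matched for 9 of the 10 (Mmp9 had none), and 9 letter patterns were searched on both strands of the 250 bases before the start. The pattern TTGCNNAA, which is part of the sequence recognised by C/EBP proteins, stood in the windows of 7 of the 9 genes, namely Ltf, Ngp, Lcn2, Mmp8, Ly6g, Retnlg and S100a9. It stood in 9.564% of all 32851 windows. The looser pattern TTNNGNAA, which contains TTGCNNAA read on the other strand, stood in 8 of 9 genes and in 36.845% of all windows. The strict palindrome TTGCGCAA and the pattern TTNCGNAA stood in none of the 9, against 0.164% and 2.043% of all windows. For the ETS-type letters of PU.1, GAGGAA stood in 5 of 9 genes (23.253% of all windows), and AGGAAGT and the longer GAGGAAGT, which contains both, each stood in Mmp8, Ly6g and S100a8 (7.686% and 2.441%). TGTGGT, the core letters of RUNX sites, stood in the S100a9 window (14.045%), and the TATA-box letters TATAAA stood in Ly6g and S100a8 (12.368%). A match describes the letters and is not a binding site. The windows of Camp and S100a8 did not hold TTGCNNAA. The Ngp window held it 138 bases before the start and, on the other strand, 11 bases before it. Only the first of these lies in the stretch of Ngp printed below. To show the match, 4 of the 7 genes that hold it were taken, a lactoferrin, a cathelicidin relative, a collagenase and a calprotectin subunit. For these the bases before the gene start, taken from whichever of RefSeq and Ensembl starts earlier, are printed 5′ to 3′ with the match in capitals (TTGCNNAA as printed in Ngp, Mmp8 and S100a9, and its reverse complement in Ltf), from chr9:111019042-111019270 (Ltf, plus strand), chr9:110419558-110419746 (Ngp, plus strand), chr9:7558179-7558428 (Mmp8, plus strand) and chr3:90695722-90695971 (S100a9, minus strand).
Ltf: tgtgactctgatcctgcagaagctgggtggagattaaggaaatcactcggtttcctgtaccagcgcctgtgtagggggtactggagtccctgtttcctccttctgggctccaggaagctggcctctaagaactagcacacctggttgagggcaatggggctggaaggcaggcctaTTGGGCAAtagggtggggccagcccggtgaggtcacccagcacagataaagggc
Ngp: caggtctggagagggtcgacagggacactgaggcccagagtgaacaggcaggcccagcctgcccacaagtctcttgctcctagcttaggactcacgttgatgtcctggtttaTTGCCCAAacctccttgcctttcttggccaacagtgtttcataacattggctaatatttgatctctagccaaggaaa
Mmp8: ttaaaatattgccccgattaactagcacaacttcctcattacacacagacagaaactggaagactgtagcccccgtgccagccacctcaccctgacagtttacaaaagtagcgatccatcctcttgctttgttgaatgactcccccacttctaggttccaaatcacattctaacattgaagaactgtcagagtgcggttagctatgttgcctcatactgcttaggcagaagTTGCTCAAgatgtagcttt
S100a9: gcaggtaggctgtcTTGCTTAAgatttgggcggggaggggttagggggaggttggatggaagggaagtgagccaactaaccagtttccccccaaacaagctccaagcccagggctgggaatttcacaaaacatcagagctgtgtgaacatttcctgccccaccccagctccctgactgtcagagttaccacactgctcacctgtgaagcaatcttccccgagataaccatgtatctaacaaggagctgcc

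The fractions and genotypes were first checked against genes that define them. The level of Kit, which encodes cKit, was between 8.17 and 9.06 log2 CPM (counts scaled to a common library total, TMM-adjusted) in the LSK libraries and between 2.26 and 6.19 in the CD11b+ libraries. Itgam, which encodes CD11b, lay between 7.24 and 10.70 log2 CPM in the CD11b+ libraries. It was also present in LSK libraries, at 6.84 and 6.67 in MxCre, 5.02 and 4.98 in Ptpn11D61Y/+, and 5.40 (540), 6.56 (815) and 6.12 (768) in S3. The level of Ptpn11 in LSK cells was 6.82 ± 0.05 log2 CPM in MxCre (SD, n = 2), 5.96 ± 0.06 in Ptpn11D61Y/+ (n = 2) and 7.21 ± 0.07 in S3 (n = 3), so the 3 genotypes stood apart there. In CD11b+ cells the spread was wider, with 4.94 ± 0.68 in MxCre, 5.65 ± 0.18 in Ptpn11D61Y/+ and 5.86 ± 1.09 in S3 from BM. Gene counts cannot show whether Cre had released the mutant allele.

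Several libraries stood apart before any comparison was made. BM MxCre 1, BM S3 815 and spleen MxCre 1 had the fewest genes detected, 14885, 14761 and 14641. Of 10714 genes well expressed in BM CD11b+ cells, 190 had no count in BM MxCre 1 and 59 none in BM S3 815, and of 10931 such genes of spleen CD11b+ cells 102 had none in spleen MxCre 1. BM S3 640 was the lowest of the 7 BM CD11b+ libraries for 9 of the 10 neutrophil genes. Counts of Xist, a transcript of the inactive X chromosome, differed between libraries with the same number: 1 in LSK S3 540 against 2780 and 712 in the BM and spleen libraries of 540, 2834 in BM MxCre 2 against 4 in spleen MxCre 2, and 4753 in spleen Ptpn11D61Y/+ 1 against 1 in BM Ptpn11D61Y/+ 1. These libraries are named here as they are labelled.

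The 10 genes took a large part of the RNA of mature myeloid cells. In BM CD11b+ libraries they held 6.90% and 10.7% of all counts in MxCre, 11.4% and 9.17% in Ptpn11D61Y/+, and 11.6% (540), 9.26% (815) and 3.67% (640) in S3. In spleen CD11b+ libraries they held 5.29% and 8.03% in MxCre and 8.58% (540), 3.66% (815) and 4.69% (640) in S3. The spleen Ptpn11D61Y/+ libraries were far below these, at 0.524% and 0.837%. In LSK cells the same genes held 0.443% and 0.375% of counts in MxCre, 0.0379% and 0.0259% in Ptpn11D61Y/+, and 0.0937% (540), 0.210% (815) and 0.135% (768) in S3.

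The group means ran in the order LSK Ptpn11D61Y/+ (0.0319% ± 0.0085, SD, n = 2), LSK S3 (0.146% ± 0.0587, n = 3), LSK MxCre (0.409% ± 0.0481, n = 2) and spleen Ptpn11D61Y/+ (0.680% ± 0.221, n = 2), with no overlap between neighbours. Above them came spleen S3 (5.64% ± 2.60, n = 3), spleen MxCre (6.66% ± 1.94, n = 2), BM S3 (8.19% ± 4.09, n = 3), BM MxCre (8.82% ± 2.71, n = 2) and BM Ptpn11D61Y/+ (10.3% ± 1.56, n = 2). Within these upper 5 groups each neighbour overlapped the next. S100a9 alone made up 44.0% of the counts of the 10 genes in spleen MxCre 2 and 33.6% in BM MxCre 2. Its TMM-adjusted levels there, 59007 and 50098 CPM, are not shares of the libraries' counts. Up to 5 of the 10 genes stood among the 10 most counted genes of a CD11b+ library, and none did in any LSK library.

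**Figure D1:**
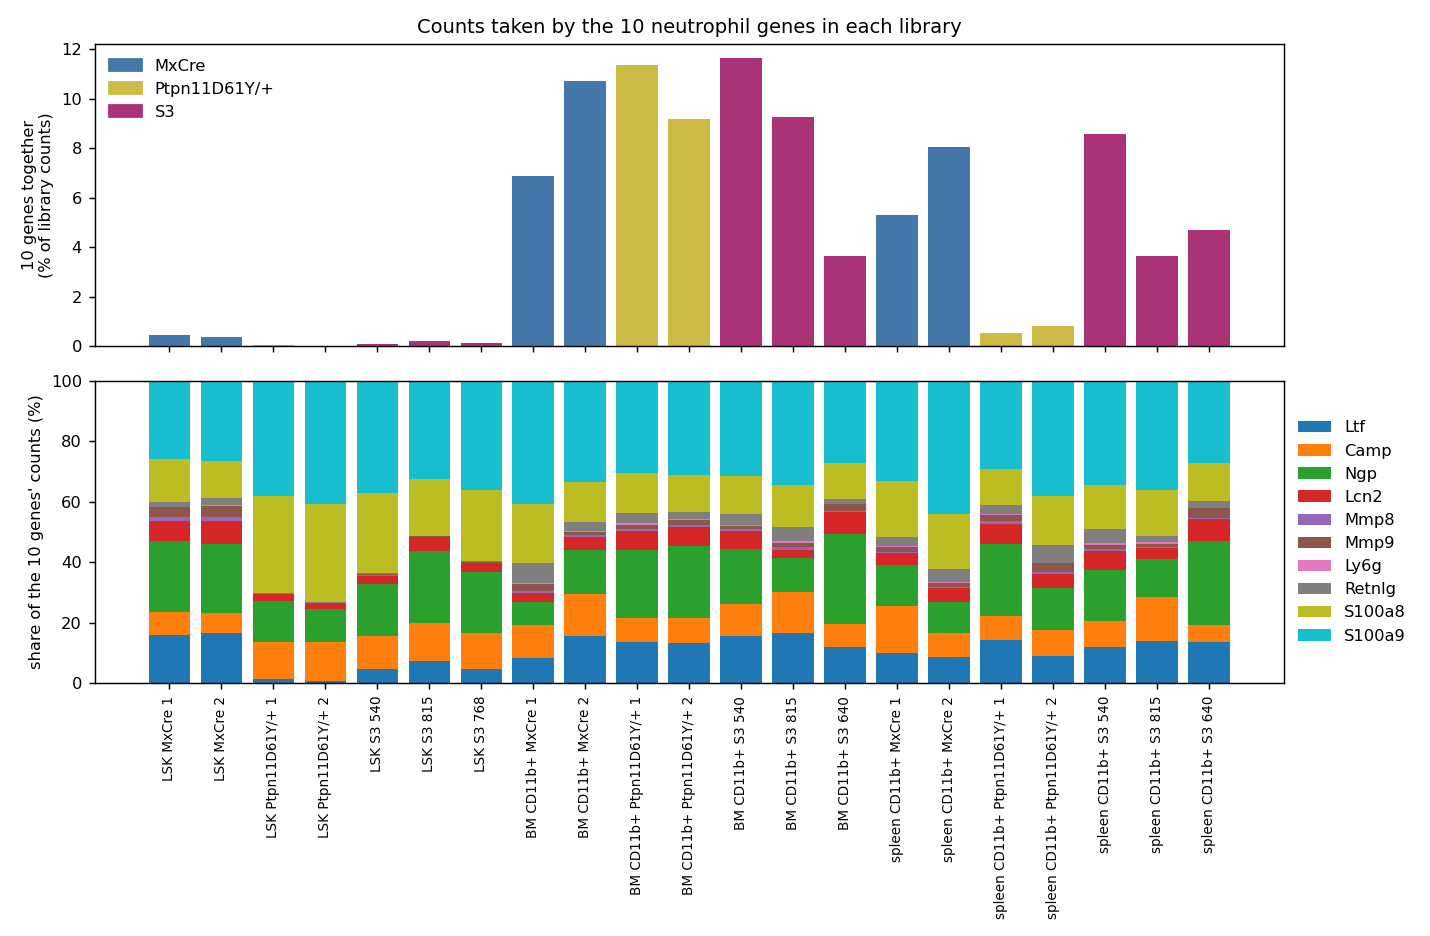
Percent of each library's counts taken by the 10 neutrophil genes together (upper bars, coloured by genotype) and the split of those counts among the 10 genes (lower stacked bars, percent). The spleen Ptpn11D61Y/+ libraries sit at 0.524% and 0.837% while the other CD11b+ libraries reach between 3.66% and 11.6%, and Ltf makes up 15.9% and 16.5% of the stack in MxCre LSK cells but 1.44% and 0.89% in Ptpn11D61Y/+ LSK cells.

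Per base of exon, S100a9 had the highest level of the 10 in all 21 libraries. Its median level was 16.32 log2 RPKM over the BM CD11b+ libraries, 14.93 over the spleen CD11b+ libraries and 9.36 over the LSK libraries. S100a8 came next in both CD11b+ fractions, followed by Ngp and Camp in BM and by Camp and Ngp in spleen, and Mmp8, the neutrophil collagenase, had the lowest median, at 8.20 log2 RPKM in BM and 6.51 in spleen. In LSK cells S100a8, Ngp and Camp again stood next (medians of 8.32, 7.29 and 7.19 log2 RPKM), and Ly6g, the surface protein of mature neutrophils, was lowest in 6 of 7 libraries. The drop from BM CD11b+ to LSK medians was thus not the same for every gene: Camp went from 13.92 to 7.19, and Retnlg, a secreted resistin-like protein, from 13.03 to 1.59 log2 RPKM.

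**Figure D2:**
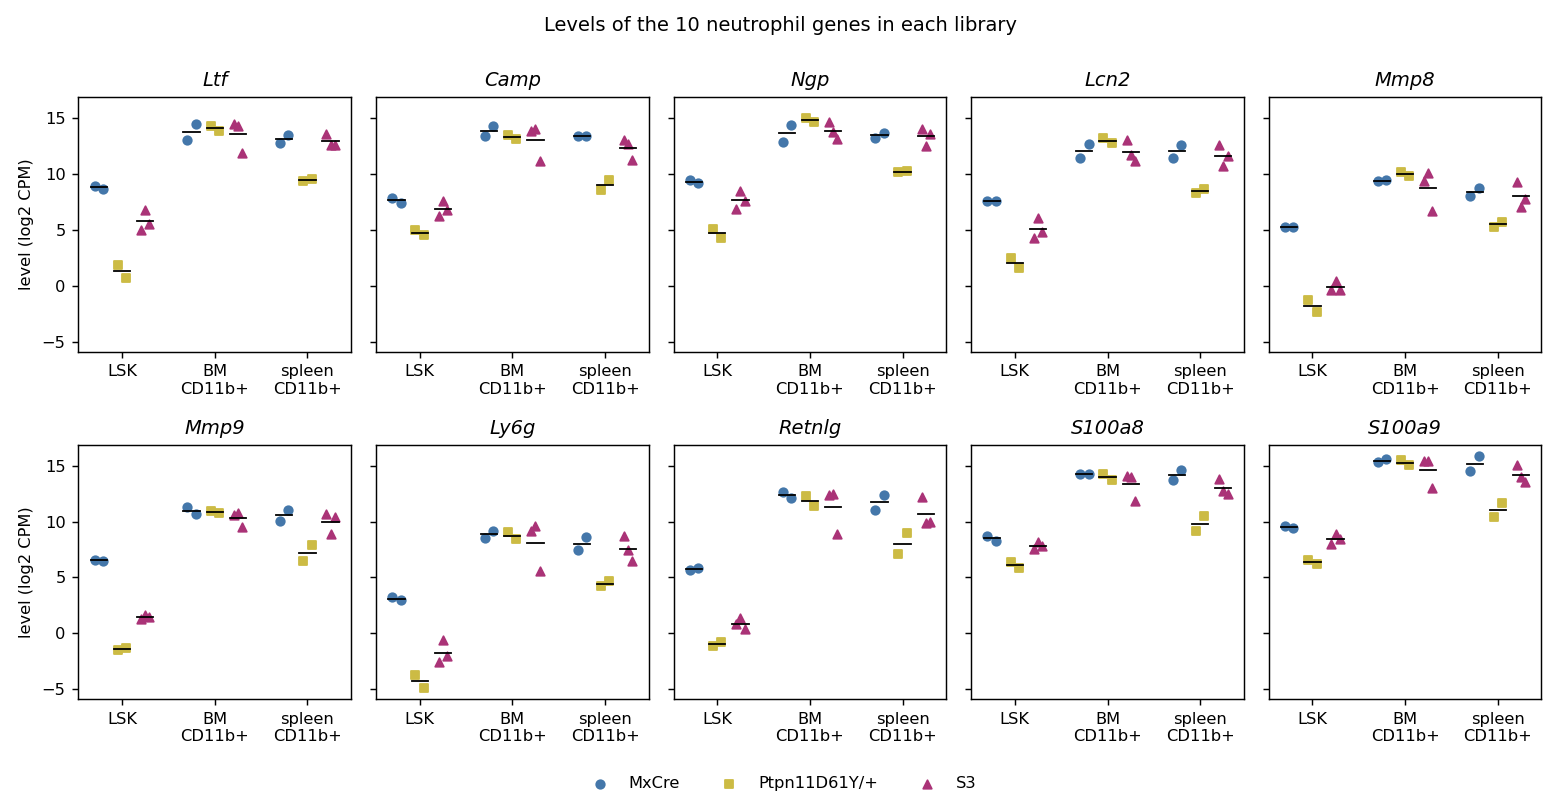
Level (log2 CPM, TMM-scaled) of each of the 10 genes in every library, by fraction along the horizontal axis and by genotype in colour and symbol, with the group mean as a line. In LSK cells the Ptpn11D61Y/+ libraries lie lowest for each gene and MxCre lies highest for every gene but Camp, where S3 815 exceeds MxCre 2, and in spleen CD11b+ cells the Ptpn11D61Y/+ libraries lie below all others.

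The comparison of fractions asked how far the programme of the myeloid cells was already present in stem and progenitor cells of the same genotype. All 10 genes were higher in CD11b+ cells than in LSK cells, by the quasi-likelihood test of edgeR with Benjamini-Hochberg adjusted p-values over all genes tested. In MxCre, 10 of 10 were higher in BM CD11b+ cells, where 16.6% of all genes tested were called higher, and the log2 fold changes ran from 4.14 (Mmp8, SE 0.89) to 6.67 (Retnlg, SE 1.20). In MxCre spleen CD11b+ cells 10 of 10 were higher (19.2% of all genes), from 3.16 (Mmp8, SE 0.85) to 6.16 (Retnlg, SE 1.17). S3 gave 10 of 10 in BM (14.4% of all genes) and 10 of 10 in spleen (15.8%), with differences from 5.79 (S100a8, SE 0.66) to 11.03 (Retnlg, SE 1.17) in BM and from 5.29 (S100a8, SE 0.65) to 10.24 (Retnlg, SE 1.14) in spleen. Over all genes 45.0% of the calls between BM CD11b+ and LSK cells in MxCre were higher with TMM scaling and 16.8% with library size alone. The shares were 46.2% and 17.7% for spleen in MxCre, 53.3% and 26.2% for BM in S3, and 57.8% and 29.3% for spleen in S3, and the 10 genes were called higher under both scalings. Markers of other cells were also called higher in BM CD11b+ than in LSK cells. The globin gene Hba-a2 had a log2 fold change between these fractions of 8.32 in MxCre and 12.67 in S3. The T cell gene Cd3d had log2 fold changes of 5.09 and 6.39, while the T cell gene Lck was not called in either. The part of these other cells in the differences was not tested.

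Ptpn11D61Y/+ libraries were not tested between fractions. Their levels were ordered the same way for each of the 10 genes, with LSK below spleen CD11b+ and spleen CD11b+ below BM CD11b+, without overlap between the groups, an order that 7.61% of all genes tested also had.

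In MxCre and in S3, none of the 10 genes was called between the organs in CD11b+ cells. Spleen against BM gave 0 of 10 genes in MxCre by edgeR (0.915% of all genes tested were called), with log2 differences from -0.98 (Mmp8, SE 0.79) to -0.02 (Lcn2, SE 0.73). In S3 it gave 0 of 10 (0.0563% of all genes), with differences from -1.06 (Ly6g, SE 0.77) to -0.22 (Mmp9, SE 0.47). The S3 animals did not all go the same way, since spleen was below BM for 10 of 10 genes in animal 815 and for 9 of 10 in animal 540, whereas BM was below spleen for 10 of 10 in animal 640. In both genotypes 0 of 10 had an unadjusted p under 0.05, and limma-voom and DESeq2 called 0 as well. Over all genes the unadjusted share was 19.8% in MxCre and 9.77% in S3. With limma-voom 2.16% and 0.0716% were called, and with DESeq2 11.1% and 3.08%. Of the 6 primary granule genes, 2 were called lower in spleen in S3, Mpo, myeloperoxidase (-4.04, SE 0.59, adjusted p = 0.0269), and Prtn3, proteinase 3 (-3.72, SE 0.63, adjusted p = 0.0443), and 1 in MxCre, Mpo (-3.97, SE 0.73, adjusted p = 0.0313). The median of the 6 was -3.56 in S3 and -2.82 in MxCre.

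The comparison of S3 with MxCre addressed the leukemic state against the control named in the study design. In LSK cells, the gelatinase gene Mmp9 and the collagenase gene Mmp8 were lower in S3, and they were the only members called. The level of Mmp9 was 6.53 and 6.51 log2 CPM in MxCre and 1.24 (540), 1.66 (815) and 1.48 (768) in S3. The 3 S3 libraries lay close to each other and far below both MxCre libraries, and the log2 fold change was -5.06 (SE 0.57, adjusted p = 0.00256). For Mmp8 the level was 5.30 and 5.23 log2 CPM in MxCre and -0.34 (540), 0.47 (815) and -0.37 (768) in S3. The fold change of Mmp8 was -5.33 (SE 0.80, adjusted p = 0.024). Called genes made up 0.0307% of those tested, 6 in all, and genes called lower 0.0256%.

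The other 4 genes called in that comparison, named after their values were seen, were Ceacam10 (-5.12), 1700047M11Rik (-4.95) and Hbb-bs (-5.13), lower in S3, and Naaa (2.77), higher in S3. Without LSK S3 540 or LSK S3 768, edgeR called 0 of 10, and without any of the other 3 libraries it called 1. DESeq2 called 6 (0.8% of all genes) and limma-voom 1 (0.0972%).

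None of the remaining members was called in LSK cells, and their log2 differences from MxCre varied in size. Lcn2, the siderophore-binding lipocalin, was at 7.62 and 7.57 log2 CPM in MxCre and 4.30 (540), 6.03 (815) and 4.84 (768) in S3. Retnlg was at 5.65 and 5.82 in MxCre and 0.84, 1.34 and 0.36 in S3. Ngp, the neutrophilic granule protein, was at 9.47 and 9.17 in MxCre and 6.89, 8.48 and 7.58 in S3. LSK S3 815 was the highest of the 3 S3 libraries for all 10 genes. Ly6g (-4.75, SE 0.94) and Retnlg (-4.86, SE 0.93) had differences close in size to those of Mmp8 and Mmp9 but an adjusted p of 0.166 each. Ltf, lactoferrin, had a value of -2.84 (SE 0.71), Lcn2 one of -2.36 (SE 0.67) and Ngp one of -1.53 (SE 0.59). Camp, the cathelicidin precursor, gave -0.69 (SE 0.67), S100a9 -1.01 (SE 0.65) and S100a8 -0.67 (SE 0.60). Of the 10, 7 had an unadjusted p under 0.05, as did 3.97% of all genes, and for 9 of 10 all S3 libraries lay below both MxCre libraries, an arrangement shown by 28.9% of all genes tested. The median difference of the 10 genes was -2.60, and that of all genes tested was 0.01.

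In counts, Ly6g was a low gene in LSK cells. The 2 MxCre libraries held 1125 and 847 Ly6g counts, and S3 held 19 (540), 59 (815) and 29 (768). Relative to total counts, the S3 libraries had 1.47%, 6.74% and 2.42% of the pooled MxCre rate, with exact 95% intervals of 0.880% to 2.29%, 5.11% to 8.73% and 1.61% to 3.48% that cover counting error only.

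The Ptpn11D61Y/+ controls, which are not leukemic, lay further from MxCre than S3 did in LSK cells. There, 6 of 10 genes were lower in Ptpn11D61Y/+ than in MxCre, when 0.0614% of all genes tested (12 genes) were called. Mmp9 was at -1.48 and -1.34 log2 CPM, which gave a log2 fold change of -8.02 (SE 0.78, adjusted p = 0.00033). Ltf was at 1.88 and 0.70 log2 CPM against 8.89 and 8.71 in MxCre, a difference of -7.41 (SE 1.01, adjusted p = 0.00634). For both genes every Ptpn11D61Y/+ library was far below every MxCre library.

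Also lower were Ly6g (-8.03, SE 1.34), Mmp8 (-7.08, SE 1.03), Lcn2 (-5.50, SE 0.89) and Ngp (-4.57, SE 0.76). The Ly6g value rests on 8 and 1 counts in the Ptpn11D61Y/+ libraries, where the rate was 0.598% (exact 95% interval 0.258% to 1.18%) and 0.0937% (0.00237% to 0.523%) of the pooled MxCre rate. Retnlg (-6.76, adjusted p = 0.0592), S100a9 (-3.09, 0.328), Camp (-2.91, 0.499) and S100a8 (-2.39, 0.68) were not called. All 10 lay below MxCre without overlap, as 29.4% of all genes did. The formyl peptide receptor genes Fpr1 (-6.56, SE 0.87) and Fpr2 (-6.11, SE 0.74) were among the other 6 genes called, all lower. Leaving out either Ptpn11D61Y/+ library ended all 6 calls, and leaving out either MxCre library left 3.

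S3 LSK cells stood between the 2 controls. For 9 of 10 genes the Ptpn11D61Y/+ libraries were lowest, the S3 libraries next and the MxCre libraries highest with no overlap at either step, an order that 1.48% of all genes tested also had, and Camp was the exception, since LSK S3 815 (7.55 log2 CPM) exceeded LSK MxCre 2 (7.43). S3 against Ptpn11D61Y/+ gave 0 of 10 genes by edgeR (0.0972% of all genes were called), although 9 had an unadjusted p under 0.05 (5.74% of all genes), limma-voom called 2 (0.874%) and DESeq2 called 4 (1.39%). All 10 lay above Ptpn11D61Y/+ without overlap, as 32% of all genes did. The differences ran from 1.71 (S100a8, SE 0.64) to 4.57 (Ltf, SE 0.87, adjusted p = 0.0588). Of the 21 other neutrophil genes 2 were called, Fpr1 (5.67, adjusted p = 0.0171) and Fpr2 (4.80, adjusted p = 0.0171), both higher in S3, and the median of the 21 was 1.43. In the other 2 comparisons in LSK cells, 0 of the 21 were called for S3 against MxCre (median -0.76) and 2, again Fpr1 and Fpr2, for Ptpn11D61Y/+ against MxCre (median -1.83). The 3 comparisons among these genotypes share libraries and are set side by side only.

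Some summed markers of other cells also stood apart between the LSK genotypes. The summed level of 9 erythroid genes, led by the beta-globin gene Hbb-bs in MxCre, was 1544 and 843 CPM in MxCre, 95 and 68 in Ptpn11D61Y/+, and 138 (540), 59 (815) and 87 (768) in S3. These sums separated MxCre from both other genotypes but not S3 from Ptpn11D61Y/+, where the median difference of the 9 genes was 0.16, and S3 815, the highest S3 library for the 10 genes, had the lowest sum. Of the 9 erythroid genes edgeR called Hbb-bs alone, and only in S3 against MxCre. Itgam was lowest in Ptpn11D61Y/+ (5.02 and 4.98 log2 CPM), next in S3 (5.40, 6.56 and 6.12) and highest in MxCre (6.84 and 6.67). These groups did not overlap, and S3 815 was the highest S3 library for Itgam as for the 10 genes. The summed level of 9 macrophage markers was 102 and 131 CPM in MxCre, 37.7 and 30.7 in Ptpn11D61Y/+, and 135 (540), 83.1 (815) and 128 (768) in S3. None of the 9 was called, with medians of -1.49 for Ptpn11D61Y/+ against MxCre, 2.84 for S3 against Ptpn11D61Y/+ and -0.28 for S3 against MxCre. The complement gene C1qa had -3.68, 2.84 and -0.83, and the macrophage receptor gene Adgre1 -3.03, 3.58 and 0.55, in these comparisons. Not every marker of the list went this way, since Vcam1 had 0.47, 0.84 and 1.31 and Cd5l 0.05, 3.30 and 3.35. The summed monocyte markers were 482 and 365 CPM in MxCre, 309 and 255 in Ptpn11D61Y/+, and 272, 779 and 809 in S3, and none of the 8 was called in any LSK comparison. Stem cell markers were not at 0 in any LSK library. The part of other cells in the LSK differences was not tested.

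Primary granule genes did not follow the pattern of the 10 genes in LSK cells. Their summed level, of which Mpo was the largest component, was 2028 and 1646 CPM in MxCre, 2754 and 2708 in Ptpn11D61Y/+, and 4958 (540), 4401 (815) and 6139 (768) in S3. All 6 genes had values above MxCre in S3 (median 1.53) and 0 were called by edgeR, with Mpo at 1.54 (SE 0.62) and Elane, neutrophil elastase, at 1.52 (SE 0.66). Cebpe, which encodes C/EBP-epsilon, was at 3.98 and 3.31 log2 CPM in MxCre, 3.48 and 3.15 in Ptpn11D61Y/+, and 4.86, 4.46 and 4.61 in S3. Its difference between S3 and MxCre was 0.97 (SE 0.57, adjusted p = 1).

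**Figure D3:**
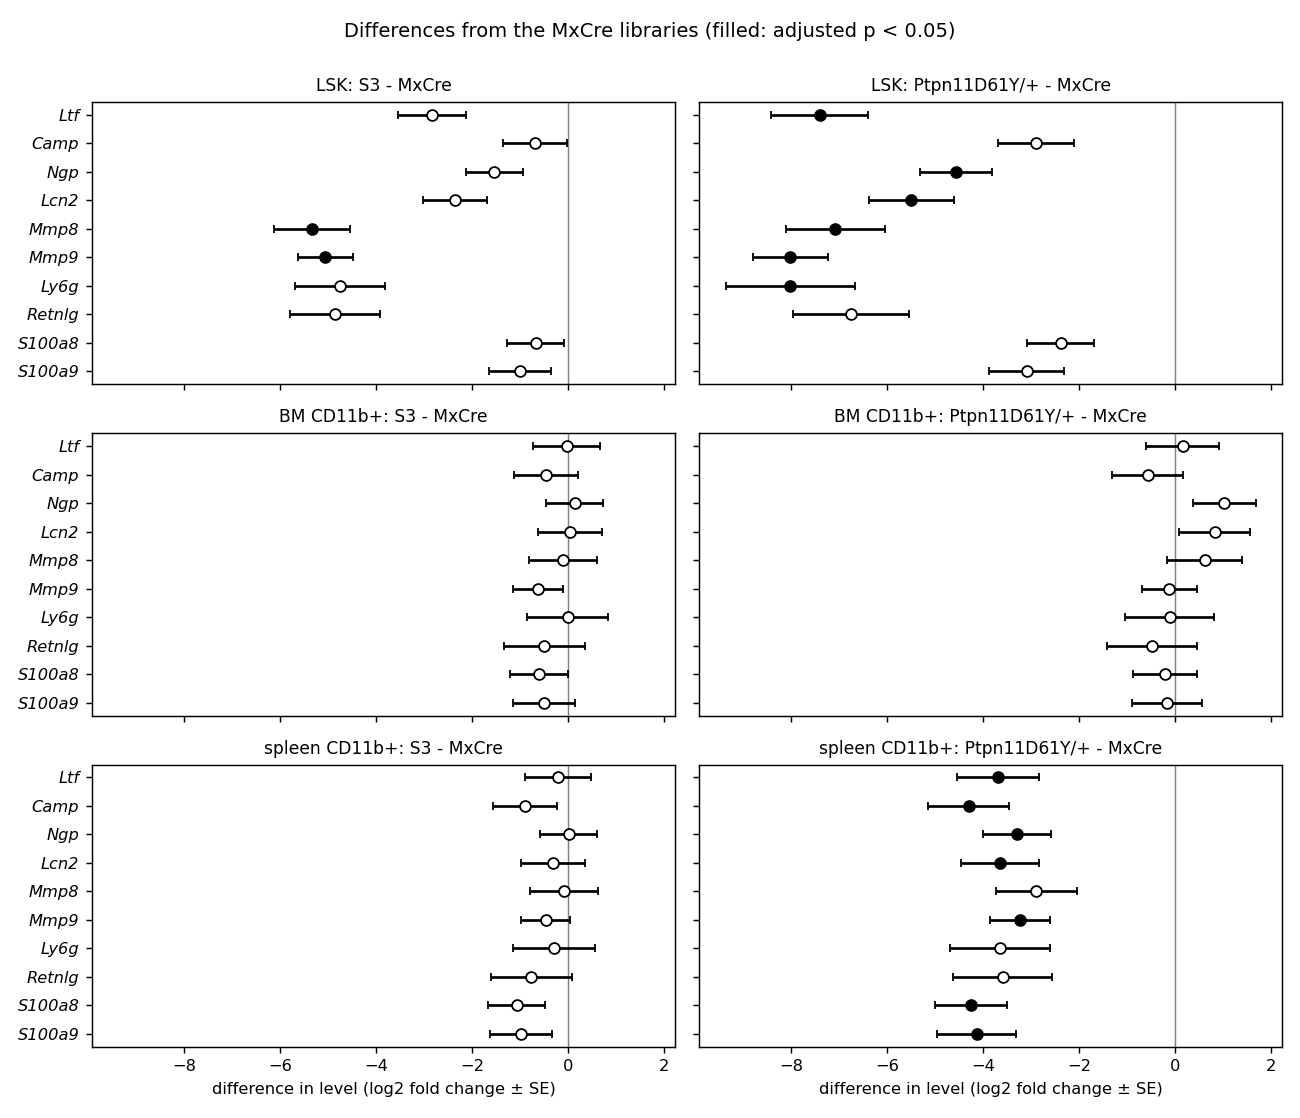
Log2 fold change ± SE of each of the 10 genes from the MxCre libraries, for S3 (left) and Ptpn11D61Y/+ (right) in LSK, BM CD11b+ and spleen CD11b+ cells; filled points passed an adjusted p of 0.05. The filled points are 2 genes for S3 and 6 for Ptpn11D61Y/+ in LSK cells and 7 genes for Ptpn11D61Y/+ in spleen CD11b+ cells, all lower.

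Ratios between genes of the same library do not depend on how the libraries are scaled to each other. In all, 8 such ratios were computed. The log2 ratio of Mmp9 to Camp counts was -1.33 and -0.92 in MxCre LSK cells. It was -5.06 (540), -5.90 (815) and -5.32 (768) in S3 LSK cells and -6.52 and -5.95 in Ptpn11D61Y/+ LSK cells. All 14 CD11b+ libraries lay between -3.75 and -0.84, so the MxCre LSK libraries were inside the range of the CD11b+ libraries and the other LSK libraries were below it.

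The ratio of Ly6g to Camp behaved the same way, at -4.65 and -4.42 in MxCre LSK cells, -9.09 to -8.24 in S3 and -10.84 and -9.15 in Ptpn11D61Y/+, with every CD11b+ library above the S3 values and the highest of them at -4.29. Ltf to Camp was 1.04 and 1.27 in MxCre LSK cells, -1.29, -0.76 and -1.29 in S3 and -3.08 and -3.84 in Ptpn11D61Y/+. S100a8 to S100a9 went the other way, with -0.91 and -1.09 in MxCre, -0.77 to -0.48 in S3 and -0.34 and -0.24 in Ptpn11D61Y/+, against -1.37 to -0.84 in CD11b+ cells. The other ratios did not all follow this pattern. Ngp to Camp was 0.60 to 0.92 in S3 LSK cells and -0.22 and 0.15 in Ptpn11D61Y/+ LSK cells, inside the CD11b+ range of -0.45 to 2.32. Mmp8 to Camp was -2.55 and -2.20 in MxCre LSK cells, above the CD11b+ range of -5.62 to -3.27, and -7.20 to -6.67 in S3 and -7.00 to -6.32 in Ptpn11D61Y/+, below it. Mmp9 to S100a8 in LSK MxCre 2 (-1.79) was also above the CD11b+ range, which ended at -2.04. The ratios were chosen after the levels were known and carry no test.

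**Figure D4:**
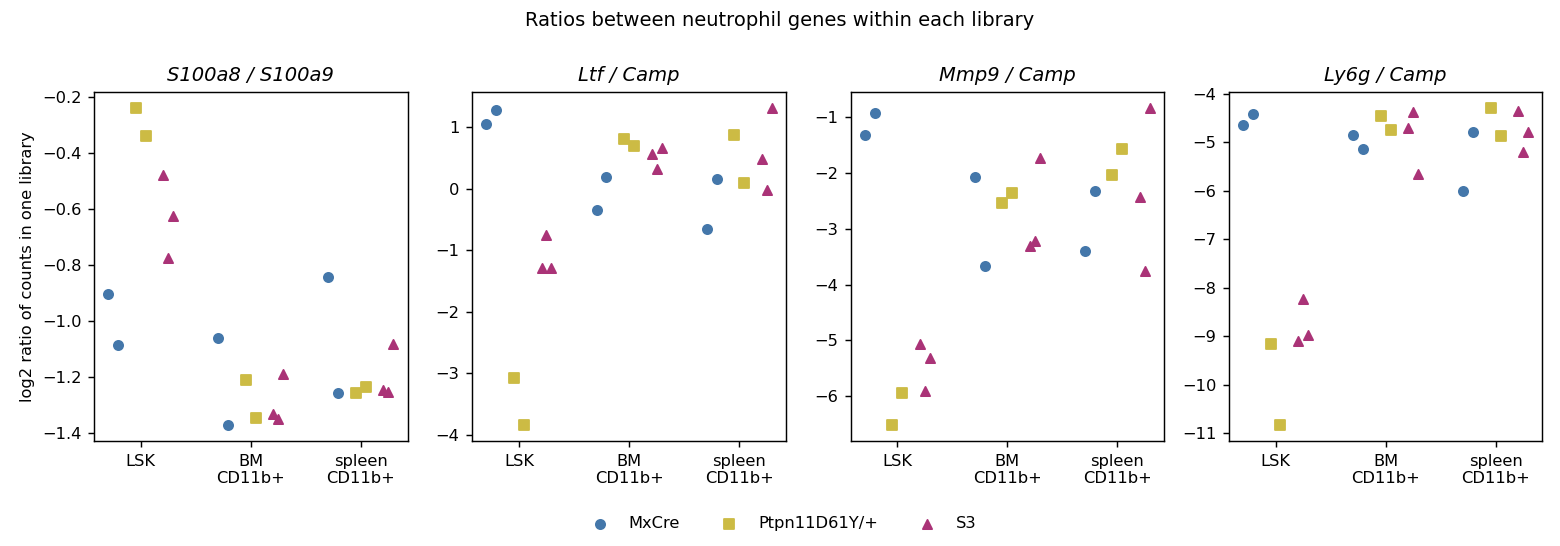
Log2 ratio of the counts of S100a8 to S100a9, and of Ltf, Mmp9 and Ly6g to Camp, within each library, by fraction (horizontal axis) and genotype (colour and symbol). The S3 and Ptpn11D61Y/+ LSK libraries lie outside the range of the CD11b+ libraries in each panel, while the MxCre LSK libraries lie inside it in these 4.

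In BM CD11b+ cells no member was called between genotypes. S3 against MxCre gave 0 of 10 by edgeR (0% of all genes were called), with log2 differences between -0.62 (Mmp9, SE 0.52) and 0.14 (Ngp, SE 0.60). Their median was -0.28 where that of all genes was 0.18. Ptpn11D61Y/+ against MxCre gave 0 of 10 (0% of all genes), from -0.57 (Camp, SE 0.74) to 1.03 (Ngp, SE 0.66), and S3 against Ptpn11D61Y/+ gave 0 of 10 (0% of all genes), from -0.88 (Ngp, SE 0.59) to 0.12 (Camp, SE 0.68). In these 3 comparisons 0 of 10 had an unadjusted p under 0.05, and limma-voom and DESeq2 called 0 of 10. Over all genes, in the order given, 15.5%, 22.6% and 8.22% had an unadjusted p under 0.05. The shares called were 0.0972%, 0.0358% and 0.0153% with limma-voom and 5.4%, 10.7% and 1.68% with DESeq2.

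The S3 libraries of BM CD11b+ cells were spread widely. Ly6g was at 9.18 (540), 9.64 (815) and 5.55 (640) log2 CPM, against 8.53 and 9.19 in MxCre. Retnlg was at 12.35, 12.51 and 8.91, and S100a9 at 15.45, 15.38 and 13.04. Without BM S3 640 the median difference from MxCre turned from -0.28 to 0.20, and with library size alone it was -0.10 with 5 of 10 genes higher, so no direction is given for these genes in BM. BM S3 640 was the library with the lowest summed erythroid markers of the BM fraction (14787 CPM, against 50049 to 223609 in the other 6 libraries) and had a Cebpe level of 6.65 log2 CPM where the other BM libraries had 7.73 to 8.92.

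Of the 10 genes, 7 were lower in Ptpn11D61Y/+ than in MxCre spleen CD11b+ cells, where 5.11% of all genes tested were called and 3.02% were called lower. S100a8 was at 13.69 and 14.59 log2 CPM in MxCre and at 9.18 and 10.45 in Ptpn11D61Y/+, a difference of -4.26 (SE 0.76, adjusted p = 0.0117). S100a9 was at 14.53 and 15.85 in MxCre and at 10.44 and 11.69 in Ptpn11D61Y/+ (-4.14, SE 0.82, adjusted p = 0.0145). Camp was at 13.45 and 13.37 in MxCre and at 8.55 and 9.51 in Ptpn11D61Y/+ (-4.30, SE 0.85, adjusted p = 0.0145). For each of them both Ptpn11D61Y/+ libraries lay below both MxCre libraries.

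Ltf (-3.69, SE 0.85), Lcn2 (-3.65, SE 0.81), Ngp (-3.30, SE 0.71) and Mmp9 (-3.24, SE 0.62) were lower as well. Ly6g (-3.66, adjusted p = 0.052), Retnlg (-3.60, 0.0547) and Mmp8 (-2.89, 0.0564) missed the threshold. All 10 lay below MxCre without overlap, which 21.4% of all genes tested did, and all 10 also lay below the 3 S3 spleen libraries. The median difference of the 10 was -3.65 and that of all genes 0.20. With library size alone the same number, 7, was called and the median was -2.98, while the share of higher calls among all genes went from 41.0% to 83.7%. Without Ptpn11D61Y/+ 1 edgeR called 0 of 10, without Ptpn11D61Y/+ 2 or without MxCre 2 it called 4, and without MxCre 1 it called 7. Without the 3 libraries with the fewest genes detected it called 10.

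Other genes of the neutrophil line were lower in the same libraries. Of 21 other granule and mature neutrophil genes, 11 were called lower and 0 higher (median -2.66), among them Wfdc21 (-4.25, SE 0.76), the receptor gene Trem1 (-3.94, SE 0.69), the G-CSF receptor gene Csf3r (-3.67, SE 0.82) and the chemokine receptor gene Cxcr2 (-3.26, SE 0.81). Lyz2, lysozyme, which monocytes also express, was the most abundant gene of that list in these 2 libraries, at 5430 and 6302 CPM. Of 6 primary granule genes, Ms4a3 (-2.66, SE 0.58) and Prss57 (-2.85, SE 0.69) were called lower. Of 7 granulocyte transcription factor genes 4 were called lower, namely Cebpb (-4.53, SE 1.23), Cebpe (-3.38, SE 0.67), Cebpd (-2.84, SE 0.76) and Runx1 (-1.22, SE 0.32). The level of Cebpe was 3.12 and 4.66 log2 CPM there and 7.21 and 7.68 in MxCre.

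Monocyte and B cell markers did not follow the 10 genes there. None of 8 monocyte markers was called by edgeR, their median difference was 0.13, and their summed level was 2249 and 2640 CPM in MxCre and 1521 and 2723 CPM in Ptpn11D61Y/+. Among the B cell markers Cd79b, a subunit of the B cell receptor, was called higher (2.75, SE 0.76), and the summed B cell markers were 2451 and 503 CPM in MxCre and 20632 and 7243 in Ptpn11D61Y/+, of which Ighm, the immunoglobulin mu chain, gave 19238 and 5243. Lck, a T cell kinase, was called higher too (3.42, SE 0.88). Itgam was at 7.24 and 8.04 log2 CPM in Ptpn11D61Y/+ and 8.19 and 9.45 in MxCre, and Kit at 6.03 and 6.19 against 4.32 and 4.01. The part of these other cells in the difference of the 10 genes was not tested.

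**Figure D5:**
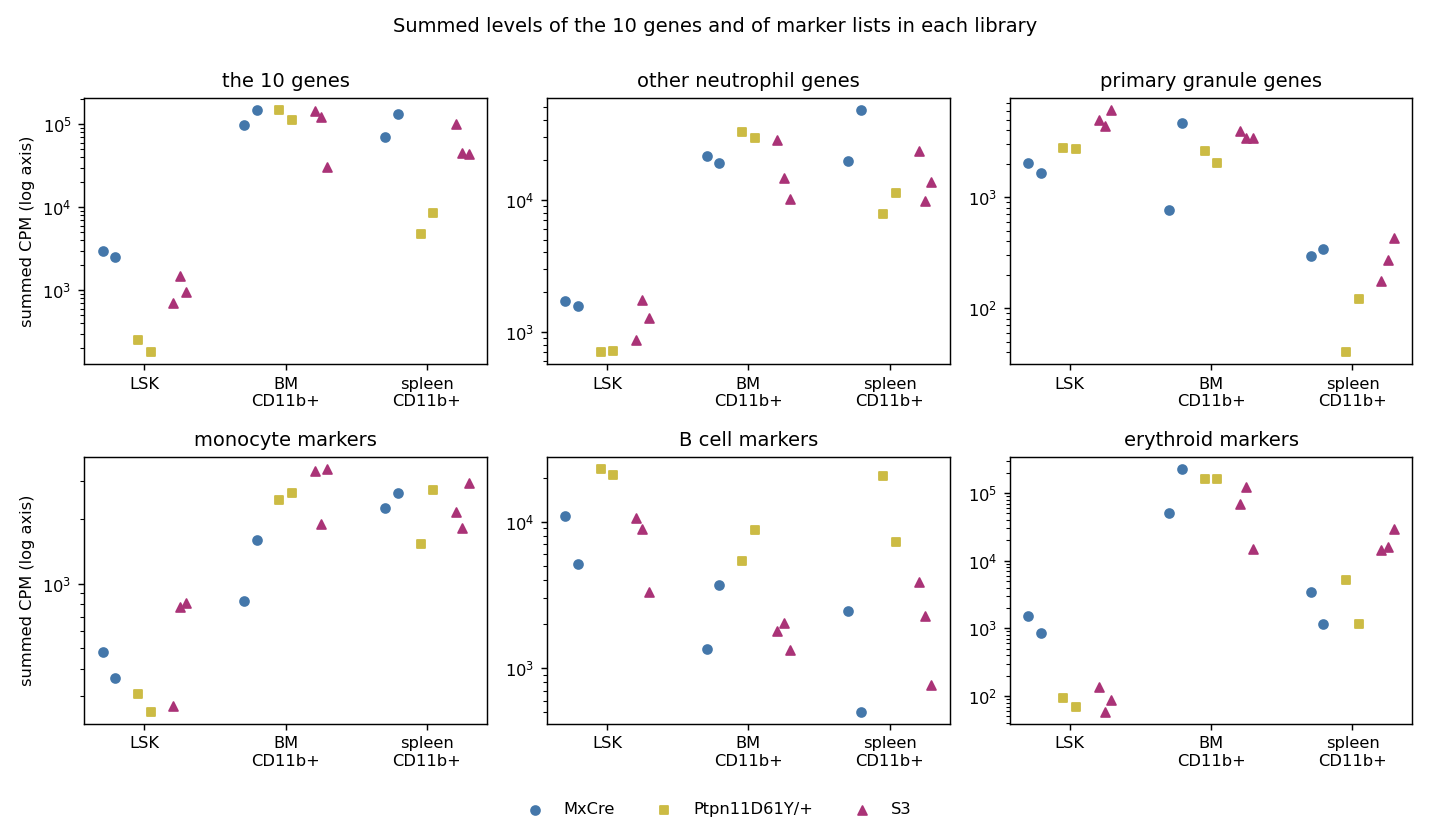
Summed level (CPM, TMM-scaled, log axis) of the 10 genes and of 5 marker lists in each library, by fraction (horizontal axis) and genotype (colour and symbol). In spleen CD11b+ cells the Ptpn11D61Y/+ libraries are low for the 10 genes and for primary granule genes, and high for B cell markers (20632 and 7243 CPM). Monocyte markers are at 1521 and 2723 CPM there, 1 library below and 1 among the other spleen libraries.

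Against MxCre, the leukemic spleen showed no call among the 10 genes. S3 against MxCre in spleen CD11b+ cells gave 0 of 10 by edgeR while 4.19% of all genes tested were called, with differences from -1.07 (S100a8, SE 0.60, adjusted p = 0.264) to 0.02 (Ngp, SE 0.59). Of the 10, 0 had an unadjusted p under 0.05 (25.3% of all genes), and limma-voom (6.79%) and DESeq2 (18.7%) called 0. The median was -0.39, that of all genes was 0.32, and with library size alone the median of the 10 turned to 0.10, so that no direction can be given. Other neutrophil genes were called in this comparison: 5 of 21 were lower, namely Csf3r (-3.49, SE 0.69), Il1b (-3.38, SE 0.90), Slpi (-3.11, SE 0.56), Trem1 (-2.68, SE 0.56) and Mxd1 (-2.43, SE 0.59). Cebpb (-4.15, SE 1.03) and Runx1 (-1.05, SE 0.28) were lower among the transcription factor genes.

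The S3 spleens differed among themselves. Spleen S3 540 was the highest of the 3 for all 10 genes, with Retnlg at 12.22 log2 CPM against 9.90 (815) and 9.93 (640), and S100a9 at 15.07 against 13.99 and 13.55. The erythroid genes Alas2 (6.15, SE 1.36) and Hbb-bs (3.73, SE 0.88), were called higher in S3, and the summed erythroid markers were 14599 (540), 15918 (815) and 29074 CPM (640) against 3424 and 1152 in MxCre.

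All 10 genes had higher values in S3 than in Ptpn11D61Y/+ spleen CD11b+ cells, and none was called. The log2 differences ran from 2.77 (Mmp9, SE 0.59, adjusted p = 0.125) to 3.48 (Ltf, SE 0.81, adjusted p = 0.159), and the groups did not overlap for any of the 10, against 9.5% of all genes. With edgeR 1 gene of all tested was called (0.00511%), 10 of 10 members had an unadjusted p under 0.05 (8.88% of all genes), limma-voom called 0 (0.0307%) and DESeq2 called 10 (2.07%). The S3 libraries are the same in both of these spleen comparisons.

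Whether the S3 effect differed between fractions was tested as the difference of the S3 to MxCre differences. Between spleen and BM CD11b+ cells 0 of 10 genes were called (0% of all genes), and the values ran from -0.48 (S100a9, SE 0.93) to 0.16 (Mmp9, SE 0.74). Between BM CD11b+ and LSK cells 0 of 10 were called (0% of all genes), with Mmp8 at 5.23 (SE 1.09, adjusted p = 0.407) and Mmp9 at 4.44 (SE 0.78, adjusted p = 0.258). Between spleen CD11b+ and LSK cells 0 of 10 were called (0.00511% of all genes), with Mmp8 at 5.25 (SE 1.09, adjusted p = 0.0925) and Mmp9 at 4.60 (SE 0.78, adjusted p = 0.0601). In the order given, the unadjusted p was under 0.05 for 0, 6 and 6 of the 10 genes (10.7%, 8.12% and 13.4% of all genes). DESeq2 called 0, 4 and 4 (2.96%, 0.789% and 4.73%), and limma-voom called 0, 0 and 1 (0.00511%, 0.0205% and 0.256%). Camp and S100a8, with 0.23 (SE 0.95) and 0.07 (SE 0.85) between BM CD11b+ and LSK cells, lay at the other end. In the main edgeR fit, a lower level in S3 that was particular to LSK cells was not shown for any of the genes. The calls depended on the tool and, within edgeR, on the scaling, the filter and the libraries fitted.

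Across all 21 libraries the 10 genes varied together. The correlation of log2 CPM between pairs of them had a median of 0.974 over 45 pairs, from 0.939 (Camp and Mmp9) to 0.998 (S100a8 and S100a9). All pairs share the gap between LSK and CD11b+ cells. Within the 14 CD11b+ libraries the median was 0.927, with the lowest value, 0.792, for Ngp and Retnlg. Within the 7 LSK libraries it was 0.948, from 0.797 (Camp and Mmp8) to 0.998 (Ngp and S100a9). The libraries share fractions and scaling, and no p is given.

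The 10 other genes with the pattern most like the average of the members over the 21 libraries were taken from 8764 genes with a mean level of at least 3 log2 CPM. They were Orm1, an acute phase glycoprotein (r = 0.989), Chil1, a chitinase-like protein (0.988), Mcemp1 (0.982), Ifitm6 (0.981), Fpr2 (0.979), A530064D06Rik (0.978), Wfdc21 (0.977), Mapk13, a p38 kinase (0.976), I830127L07Rik (0.973) and Cd177, a neutrophil surface protein (0.973). Fpr2, Wfdc21 and Cd177 also stand in the list of other neutrophil genes. Ltf itself had an r of 0.992 and Camp one of 0.982 with that average, to which each contributes.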

How the data were processed

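Per the labels and the study's methods, the authors trimmed 100 bp paired-end reads with Trim Galore (0.6.5), mapped them to GRCm38 with STAR (2.5.3a) and deposited 1 table of raw read counts per gene for each of 21 libraries. The methods name a stranded mRNA kit and the labels a standard one, and the counting program, its strand setting and its annotation are not given in the sources used here. The deposited counts were joined by Ensembl identifier and 45143 of 45706 had a symbol. Total counts were 34992610 to 104509425 per library, which set the precision of low genes such as Ly6g in LSK cells.

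Genes were kept by filterByExpr (19555 of 45706, 99.99% of counts). Counts were fitted with edgeR (4.0.16, R 4.3.3) as a quasi-likelihood model with TMM factors, robust dispersion and 1 coefficient for each of 9 groups, leaving 12 residual degrees of freedom. Tests were two-sided, with Benjamini-Hochberg adjustment over all genes tested and a threshold of 0.05. Levels are log2 CPM with TMM scaling and a prior count of 2, which pulls low values together, and log2 RPKM used merged exon lengths of the GRCm38 annotation. Alternatives were RLE or no composition factors, no filter, limma-voom (3.58.1), DESeq2 (1.42.0), only the groups compared, both controls together, no libraries with few genes, a replicate block, and leaving out each library. Where leaving libraries out left 1 library in a control group, the spread came from the other groups. Exact 95% intervals of Ly6g rates came from scipy (1.17.1).

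All 10 members are named. Of each marker list, the most abundant genes and those past the threshold were eligible to be named. The 10 genes most similar to the members were ranked by correlation with their average standardised level. The members and lists were chosen with earlier results of these data known. Further marker lists are given under the other observations. Some results for single genes are not reported here.

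The labels give the BM and spleen CD11b+ libraries of S3 the same mouse numbers, 540, 815 and 640. Over genes, the deviations of these pairs from their group means correlated at 0.108, 0.407 and 0.333, and a block for the mouse number was an alternative.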

Additional observations from a re-analysis of the deposited data

How the results depend on the processing

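Values are numbers of the 10 genes called. For Ptpn11D61Y/+ against MxCre, limma-voom called 0.0256% of all genes in LSK cells and 8.65% in spleen, and DESeq2 called 0.589% and 18.1%. Where a setting has no share of all genes here or above, its count cannot be told from a change in calls over all genes. In LSK cells S3 against MxCre gave 2, but 1 with limma-voom, 6 with DESeq2, 5 with only the groups compared, 0 with both controls together, 1 without the 3 libraries with the fewest genes detected, and 0 to 1 when each library was left out. With both controls together Camp (0.13) and S100a8 (0.078) changed sign. S3 against Ptpn11D61Y/+ in LSK cells gave 0, but 1 with library size alone, 2 with no filter, 2 with limma-voom, 4 with DESeq2, 8 with only the groups compared, and 0 to 1 when each library was left out. In spleen it gave 0, but 1 with no filter, 10 with DESeq2, and 0 to 2 when each library was left out (2 without S3 815). Ptpn11D61Y/+ against MxCre gave 6 in LSK cells, but 4 with limma-voom, 5 with no filter, 5 without the 3 libraries with the fewest genes, 7 with library size alone, 10 with DESeq2, 10 with only the groups compared, and 0 to 3 when each library was left out. In spleen it gave 7, but 10 with limma-voom, DESeq2 or without the 3 libraries with the fewest genes, 5 with only the groups compared, and 0 to 7 when each library was left out. The difference between BM CD11b+ and LSK cells gave 0, but 4 with DESeq2 and 0 to 1 with a library left out (1 without BM MxCre 2). That between spleen CD11b+ and LSK cells gave 0, but 2 with library size alone, 1 with no filter, 1 with limma-voom, 4 with DESeq2, 2 with only the groups compared, 1 without the 3 libraries with the fewest genes, and 0 to 1 with a library left out (1 without spleen MxCre 2 or spleen S3 815). The cause of these changes was not tested, except that leaving out libraries leaves fewer samples. In the fraction comparisons 9 or 10 of 10 were called throughout. Under library size alone the all-gene median went from -0.34 to -1.49 for spleen CD11b+ against LSK cells in MxCre and from 0.32 to 0.77 for S3 against MxCre in spleen.

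A replicate block used the mouse number in S3 and the replicate number in MxCre, which is not known to mark a mouse. With it the fraction comparisons kept 10 of 10 and spleen against BM kept 0 of 10, so the block changed no call there. Ptpn11D61Y/+ and MxCre libraries share only a number, their same-numbered deviations correlated at -0.041 in LSK, -0.031 in BM and -0.0019 in spleen, and the replicate block gave 10 of 10 in LSK cells, 0 in BM and 10 in spleen. S3 shares no number with either control. No paired analysis was possible because of this in those comparisons. Depth limits Ly6g in LSK cells, where 1 library had 1 count.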

Other observations

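Between genotypes within a fraction, edgeR called 0 of 9 macrophage, 0 of 6 eosinophil, 0 of 5 basophil and mast cell, 0 of 6 dendritic cell, 0 of 7 stem and progenitor, 0 of 5 megakaryocyte and 0 of 6 NK cell markers in each of the 9 comparisons. In LSK cells S3 differed from MxCre by a median of -0.28 for the macrophage list, 1.95 for eosinophils, 3.46 for basophils and mast cells, 1.55 for dendritic cells, -0.44 for stem and progenitor cells, 1.77 for megakaryocytes, -0.77 for T cells and 2.13 for NK cells, on the log2 scale. Gata2 stands in both the basophil and mast cell list and the stem and progenitor list. CD11b+ cells were lower than LSK cells in 6 of 7 stem and progenitor markers in each of the 4 comparisons of fractions, and higher in 8 or 9 of 9 macrophage markers. Of the 21 other neutrophil genes, 17 to 19 were higher in CD11b+ cells, while of the 6 primary granule genes the spleen CD11b+ fraction had 3 below LSK cells in MxCre and 6 in S3.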
